A study of Mus musculus with 31 samples.

Results

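A set of 8 genes that mark inhibitory neurons was followed across mouse brain libraries: Gad1, Gad2, Slc32a1, Pvalb, Lhx6, Dlx1, Dlx2 and Dlx5. They were taken by gene symbol from a deposited table of 48795 genes, and 8 of 8 were found, once each. The study sequenced total RNA from aliquots of homogenised mouse brain tissue and asked how gene transcription differs after exposure during development to deltamethrin, an insecticide of the pyrethroid class whose target is the voltage-gated sodium channel. The labels place 13 libraries in control and 18 in deltamethrin, and the agent is the one difference they name between the groups. Strain, genotype, age, sex, dose and dosing schedule are not given in the sources used here, nor is it said whether libraries came from separate animals or litters, so the p-values measure the spread between these samples, which may be technical. A homogenate mixes many brain regions, so each value averages striatal, cortical, cerebellar and olfactory bulb neurons with glia.

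GABA is the main inhibitory transmitter of the brain. It is made from glutamate by the 2 decarboxylases that Gad1 (GAD67) and Gad2 (GAD65) encode, and it is loaded into synaptic vesicles by the vesicular transporter that Slc32a1 encodes. The Dlx homeobox genes specify inhibitory neurons of the embryonic ventral forebrain and remain expressed in subsets of adult inhibitory neurons, and Lhx6 acts downstream in interneurons of the medial ganglionic eminence. Pvalb encodes parvalbumin, the calcium buffer of fast-spiking interneurons, and is also made by Purkinje cells and by inhibitory interneurons of the cerebellum.

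Libraries held 17570311 to 38680621 counts. Mitochondrial ribosomal RNA (mt-Rnr1 and mt-Rnr2) took 8.49 to 40.2% of the counts in control and 7.32 to 26.3% in deltamethrin. Control replicate 2 stood apart, with the lowest total and the highest mitochondrial share, and results that rest on it are given with and without it. Brain markers were detected in both groups, and 0 genes of the neuronal, astrocyte, oligodendrocyte, microglia or choroid plexus lists were at 0 throughout a group. Summed over its genes, the neuronal list held 2061 to 4305 CPM (counts scaled to the size of the library) in control and 2718 to 4794 CPM in deltamethrin.

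Upstream sequence is shown for 5 of the genes, because Gad1, Gad2 and Slc32a1 varied together over the libraries, Pvalb varied the opposite way under the scaling used, and Dlx2 varied with Dlx1. RefSeq windows were matched for 7 of the 8 symbols (Dlx5 is named only). Each stretch is RefSeq sequence of GRCm38.p6, 5′ to 3′ on the strand of the gene, from the 250 bases before the annotated start and without bases that overlap an exon of a protein-coding gene. Capitals mark the letters TAATT (a homeodomain core), TATAAA (the TATA box), CCAAT (a site of the factor NF-Y) or TGACGT (the core of a cAMP response element) on either strand. The Gad1 stretch lies inside the GENCODE span of Gad1, which starts further upstream.
Gad1, chr2:70561879-70562041, plus strand: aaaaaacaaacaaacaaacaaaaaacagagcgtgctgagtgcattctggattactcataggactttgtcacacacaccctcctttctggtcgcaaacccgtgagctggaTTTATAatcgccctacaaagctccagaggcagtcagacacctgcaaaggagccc
Gad2, chr2:22622077-22622204, plus strand: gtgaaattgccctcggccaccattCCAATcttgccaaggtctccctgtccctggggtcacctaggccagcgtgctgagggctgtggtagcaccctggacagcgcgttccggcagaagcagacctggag
Slc32a1, chr2:158610508-158610757, plus strand: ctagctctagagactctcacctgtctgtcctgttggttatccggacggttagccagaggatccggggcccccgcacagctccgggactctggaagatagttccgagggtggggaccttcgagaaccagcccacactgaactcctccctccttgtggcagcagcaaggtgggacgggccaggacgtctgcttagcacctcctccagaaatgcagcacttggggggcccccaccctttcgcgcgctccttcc
Pvalb, chr15:78206401-78206650, minus strand: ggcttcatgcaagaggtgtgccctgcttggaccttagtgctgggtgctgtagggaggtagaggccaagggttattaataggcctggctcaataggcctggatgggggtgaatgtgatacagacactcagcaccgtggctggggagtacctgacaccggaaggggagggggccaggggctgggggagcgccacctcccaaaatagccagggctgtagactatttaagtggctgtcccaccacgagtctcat
Dlx2, chr2:71546755-71547004, minus strand: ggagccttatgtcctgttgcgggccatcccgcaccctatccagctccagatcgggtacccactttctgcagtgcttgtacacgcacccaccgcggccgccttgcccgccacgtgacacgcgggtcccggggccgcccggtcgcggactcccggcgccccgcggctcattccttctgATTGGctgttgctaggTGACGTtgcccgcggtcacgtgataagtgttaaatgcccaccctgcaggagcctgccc

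The Gad1 stretch held 1 TATAAA match on the minus strand, a motif found in 12.4% of 32851 RefSeq windows of 250 bases. Gad2 and Dlx2 each held 1 CCAAT, which 33.8% of windows hold, and Dlx2 also held 1 TGACGT, which 6.47% hold. TAATT, present in 25% of windows, was not among the letters of these 5 stretches. E-boxes, spelled CANNTG and present in 66.2% of windows, numbered 1 in Gad1, 2 in Slc32a1, 2 in Dlx2 and 0 in the Gad2 and Pvalb stretches shown. The shares are of full windows of 250 bases, while the Gad1 and Gad2 stretches are 163 and 128 bases long. The full Gad2 window held 1 E-box, as did a second Pvalb window that is not shown. The matches describe letters in these windows and no binding was measured.

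Gad1, Gad2, Slc32a1, Lhx6, Dlx1 and Dlx2 lie on chromosome 2 of GRCm38. Dlx1 (71528113 to 71533981, plus strand) and Dlx2 (71543408 to 71546754, minus strand) are neighbours that face each other. The antisense gene Dlx1as shares 335 exonic bases with Dlx1, 6.21% of the merged Dlx1 exons, and was itself given 12 to 61 counts per library. The antisense gene Gm14205 shares 697 exonic bases with Slc32a1, 24.9% of its merged exons, and was given 0 to 5 counts. The use of strand in counting is not given in the sources used here, so reads of Dlx1 and Slc32a1 cannot be told apart from those of the antisense genes in the shared bases. Pvalb lies on chromosome 15 (78191114 to 78206400, minus strand) and Dlx5 on chromosome 6 (6877805 to 6882085, minus strand).

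Levels were ordered per length, as CPM per kilobase of merged exons in GENCODE M21. Pvalb had the highest level, 127 ± 31 (SD, n = 31 libraries), and it exceeded Gad1 in 31 of 31 libraries. Gad1 followed at 29.4 ± 5.70 and exceeded Slc32a1 in 30 of 31. Slc32a1 (21.8 ± 5.84) and Gad2 (21.1 ± 5.08) did not separate, with Slc32a1 higher in 18 of 31 libraries. The transcription factors were far lower: Dlx1 at 3.17 ± 0.650, Lhx6 at 1.90 ± 0.273, Dlx5 at 1.29 ± 0.298 and Dlx2 at 0.998 ± 0.251. Dlx1 exceeded Lhx6 and Lhx6 exceeded Dlx5 in 31 of 31 libraries, while Dlx5 exceeded Dlx2 in 28 of 31. Merged exons include isoforms that brain may not use, so these levels can be too low for genes with long rare exons.

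The question of the study for these genes is whether their levels differed between deltamethrin and control. All 8 passed the count filter, and 0 of 8 were called at an adjusted p-value below 0.05 in the quasi-likelihood fit of edgeR, beside 0.00% of the 19529 genes tested. Of the 8, 1 gene, Gad2, had an unadjusted p-value below 0.05, beside 4.37% of all genes in either direction. The 8 log2 fold changes divided evenly, 4 higher and 4 lower, and their median was 0.00099, beside 0.0014 over all genes. In this mixture of cells, fewer cells of a type and less RNA per cell cannot be told apart.

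Among the synthesis enzymes, Gad1 (ENSMUSG00000070880) ran from 146 through a median of 226 to 260 CPM in control and from 162 through 231 to 337 CPM in deltamethrin. The groups overlapped over most of their range, and the 2 highest libraries were deltamethrin replicates 1 and 2. The mean was 214 ± 36.5 CPM in control (SD, n = 13) and 232 ± 47.5 CPM in deltamethrin (SD, n = 18). The log2 fold change was 0.12 ± 0.10 (SE), with a 95% interval of -0.08 to 0.32 and an adjusted p of 0.821 (edgeR). In fold terms the interval runs from 0.944 to 1.2. Without control replicate 2 the log2 fold change was 0.08.

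Gad2 (ENSMUSG00000026787) had the widest gap between the groups of the 8 genes. It ran from 79.8 through a median of 116 to 140 CPM in control and from 88.1 through 121 to 215 CPM in deltamethrin. Deltamethrin replicates 1, 2, 3 and 7 (199, 215, 171 and 157 CPM), with replicate 15 at 142 CPM, lay above every control library, while the medians were close and 11 of 18 deltamethrin libraries lay above the control median. Control averaged 113 ± 19.2 CPM (SD, n = 13) and deltamethrin 132 ± 33.8 CPM (SD, n = 18). The fitted log2 fold change for Gad2 was 0.23 ± 0.11 (SE; 95% interval 0.01 to 0.45), with an unadjusted p of 0.0440 and an adjusted p of 0.813 (edgeR). The difference was not called, and Gad2 was number 716 of all genes by p-value. Without deltamethrin replicate 2 the fold change was 0.18 with an unadjusted p of 0.0833 (edgeR), and that p stayed below 0.05 in 20 of the 31 fits that each left out 1 library. A permutation test of the mean log2 CPM gave a two-sided p of 0.070. The ratio of Gad2 to Gad1 counts within a library, chosen after the values were seen, had a median of 0.525 in control (0.472 to 0.625) and 0.553 in deltamethrin (0.448 to 0.742), a log2 difference of 0.099 (two-sided permutation p = 0.106).

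Slc32a1 (ENSMUSG00000037771), the vesicular transporter gene, ran from 25.7 through a median of 65.6 to 84.8 CPM in control and from 35.3 through 63.1 to 94.7 CPM in deltamethrin. The lowest value was that of control replicate 2. The log2 fold change was 0.05 ± 0.14 (SE; 95% interval -0.24 to 0.33; adjusted p = 0.942, edgeR), and without control replicate 2 it was -0.02.

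Pvalb (ENSMUSG00000005716) ran from 80.5 through a median of 127 to 242 CPM in control and from 91.1 through 124 to 186 CPM in deltamethrin. Control replicate 2, the lowest library for Gad1 and Slc32a1, was the highest for Pvalb, and the next highest value of either group was 186 CPM in deltamethrin replicate 10. That peak depended on its scaling factor of 0.613. Before scaling it held 2604 Pvalb counts of 17570311, a smaller share than the 4735 of 27017045 in control replicate 10. The log2 fold change was -0.07 ± 0.12 (SE; 95% interval -0.31 to 0.17; adjusted p = 0.903, edgeR). It was 0.03 without control replicate 2, and 0.0065 without scaling factors, so its sign is not fixed.

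Lhx6 (ENSMUSG00000026890) was the steadiest of the 8 genes. It ran from 6.29 through a median of 9.76 to 11.5 CPM in control and from 7.05 through 9.08 to 11.2 CPM in deltamethrin, and the groups overlapped throughout. Its log2 fold change was -0.02 ± 0.08 (SE), and the 95% interval of -0.18 to 0.14 was the narrowest of the 8. That interval leaves out a fall below 0.884-fold and a rise above 1.10-fold.

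Dlx1 (ENSMUSG00000041911) ran from 8.92 through a median of 17.2 to 26.9 CPM in control and from 12.2 through 17.2 to 21.9 CPM in deltamethrin. Both its lowest library (control replicate 7) and its highest (control replicate 3) were controls, and the deltamethrin libraries lay between them. The SD was 4.52 CPM in control (n = 13) and 2.70 CPM in deltamethrin (n = 18). The log2 fold change was -0.01 ± 0.11 (SE; 95% interval -0.23 to 0.20), and its sign changed with the scaling (0.01 without scaling factors).

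Dlx2 (ENSMUSG00000023391), with 26 to 157 counts per library, ran from 1.78 through a median of 2.56 to 5.28 CPM in control and from 1.39 through 2.99 to 3.44 CPM in deltamethrin. Control replicate 3, the highest library for Dlx1, was again the highest, and 15 of 18 deltamethrin libraries lay above the control median. The log2 fold change was 0.02 ± 0.13 (SE; 95% interval -0.25 to 0.28). It was 0.13 without control replicate 3.

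Dlx5 (ENSMUSG00000029755), with 14 to 135 counts per library, ran from 1.30 through a median of 3.05 to 4.17 CPM in control and from 1.74 through 2.86 to 4.28 CPM in deltamethrin. The lowest library was control replicate 2, with 14 counts. The log2 fold change was -0.05 ± 0.12 (SE; 95% interval -0.29 to 0.20), and without control replicate 2 it was -0.10. The adjusted p of Lhx6, Dlx1, Dlx2 and Dlx5 lay between 0.931 and 0.978 (edgeR).

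**Figure D1:**
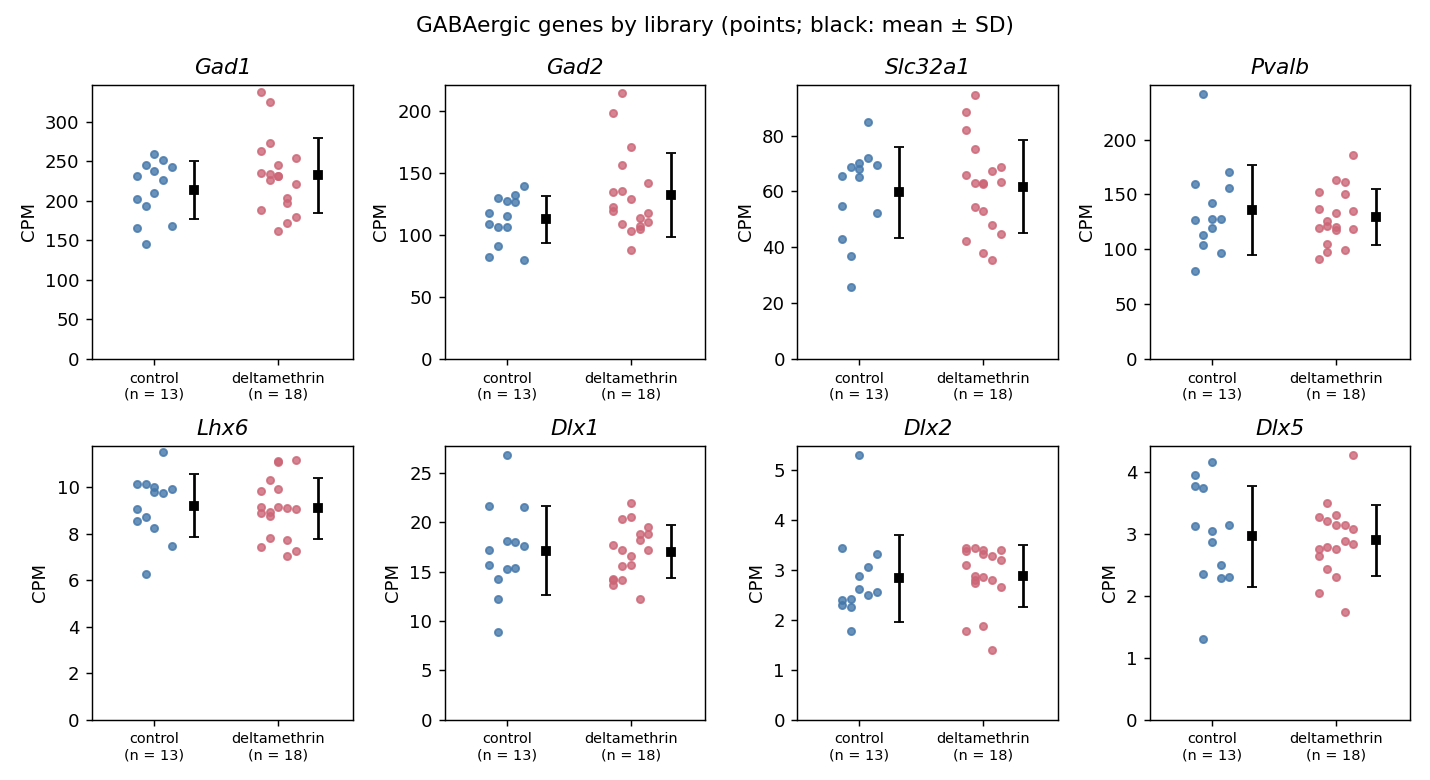
CPM on TMM-scaled library sizes (y axis, from 0) of each gene in each library, for control (blue, n = 13) and deltamethrin (red, n = 18), with the mean and SD in black beside the points. The groups overlap for each gene, and the 2 highest Gad2 points are deltamethrin libraries at 199 and 215 CPM. Control replicate 2 is the single high Pvalb point at 242 CPM, but was not the highest library before scaling.

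Other genes of the same pathways were read from lists written with earlier results of these data known. The list of 13 genes that make, move or break down GABA and its precursors holds Gad1, Gad2 and Slc32a1. All 13 had a positive log2 fold change, with a median of 0.12, but 1 of 13 (Gad2, 7.69%) had an unadjusted p-value under 0.05 and 0 were called. Over all genes, 9864 of 19529 were higher and 4.37% had an unadjusted p-value under 0.05. Without control replicate 2 the positive fold changes of this list numbered 12. Aldh5a1, which oxidises succinic semialdehyde at the end of GABA breakdown, averaged 54.5 ± 9.67 CPM in control and 61.9 ± 14.1 CPM in deltamethrin (log2 fold change 0.18 ± 0.10 SE, unadjusted p = 0.0889). The GABA transporter GAT2 of the meninges, Slc6a13, averaged 2.45 ± 0.681 CPM and 2.83 ± 0.582 CPM (0.20 ± 0.12, unadjusted p = 0.111). Both had an adjusted p of 0.813 (edgeR). The 5 astrocyte markers also all had a positive log2 fold change, with a median of 0.20 and 0 at an unadjusted p-value under 0.05. The glutamate transporters Slc1a2 and Slc1a3, the most abundant of them, had 0.28 ± 0.20 and 0.21 ± 0.11. The summed level of the 5 astrocyte markers ran from 1306 to 2454 CPM in control and from 1247 to 4195 CPM in deltamethrin. Their part in the GABA values was not tested.

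Of 22 transcription factors of inhibitory neurons, Lhx6, Dlx1, Dlx2 and Dlx5 among them, 21 passed the count filter (Gsx2 did not), 11 higher and 10 lower, with a median of 0.01. Of these 21, 4.76% had an unadjusted p-value under 0.05, beside 4.37% of all genes. Nr2f2 (COUP-TFII), a factor of interneurons from the caudal ganglionic eminence that vessels also express, was the 1 factor with an unadjusted p-value under 0.05. It averaged 17.3 ± 2.55 CPM in control and 20.7 ± 3.84 CPM in deltamethrin, with 14 of 18 deltamethrin libraries above the control median (log2 fold change 0.26 ± 0.09 SE, unadjusted p = 0.00437, adjusted 0.813, edgeR). Tox, an HMG-box factor, had a log2 fold change of -0.09 ± 0.06 and Maf, a factor of interneurons from the medial ganglionic eminence, 0.13 ± 0.10, with unadjusted p-values of 0.168 and 0.190.

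Of 20 subclass markers, 9 were higher and 11 lower, with a median of -0.04. An unadjusted p-value under 0.05 was found for 2 of them (10%), beside 4.37% of all genes. Calb1 (calbindin), found in some interneurons and in Purkinje and striatal projection cells, averaged 112 ± 10.4 CPM in control and 129 ± 18 CPM in deltamethrin, with 15 of 18 deltamethrin libraries above the control median (log2 fold change 0.21 ± 0.07 SE, unadjusted p = 0.00467). Chodl, a marker of a rare somatostatin class with 4 to 67 counts per library, averaged 0.815 ± 0.262 and 1.11 ± 0.378 CPM (0.42 ± 0.17, unadjusted p = 0.0216). Both had an adjusted p of 0.813 (edgeR). The peptide gene Cck had 163 ± 23.7 and 144 ± 34.4 CPM (-0.18 ± 0.10, unadjusted p = 0.102).

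Of 17 genes tied to fast-spiking cells, 14 were higher and 3 lower, with a median of 0.07 and 0 at an unadjusted p-value under 0.05. Over all genes 9864 of 19529 were higher and 4.37% had an unadjusted p-value under 0.05. Pvalb itself had a log2 fold change of -0.07. The 3 smallest p-values of this list were those of Erbb4, Nxph1 and Acan. Erbb4, a neuregulin receptor of interneurons, had a log2 fold change of 0.19 ± 0.12 (SE). Nxph1, a secreted ligand of neurexins, had 0.08 ± 0.05, and Acan, the aggrecan of perineuronal nets, 0.25 ± 0.21. In marker lists for regions, 12 of 12 striatal projection genes were lower (median -0.15, 1 of them, Gpr6, at an unadjusted p-value under 0.05) and 12 of 12 cerebellar genes were higher (median 0.22, 0 at an unadjusted p-value under 0.05). The most abundant were Adcy5 (log2 fold change -0.01 ± 0.09 SE) and Ppp1r1b (-0.21 ± 0.12) for striatum, and Itpr1 (0.14 ± 0.15) and Car8 (0.30 ± 0.20) for cerebellum. Of 8 olfactory bulb genes 4 were higher and 4 lower, and of 10 glutamatergic genes 3 were higher and 7 lower. Oligodendrocyte genes numbered 1 higher and 4 lower, microglial genes 3 and 2 (1 of them, Tmem119, lower at an unadjusted p-value under 0.05), and choroid plexus genes 0 and 5 (Ttr and Folr1 at that level). Gpr6, Tmem119 and Folr1 are named after their values were seen. The summed striatal level ran from 1062 to 1774 CPM in control and from 821 to 1789 CPM in deltamethrin, and the cerebellar level from 826 to 1519 and from 659 to 2064 CPM. Both regions hold GABAergic neurons, and their part in the group values of the 8 genes was not tested.

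**Figure D2:**
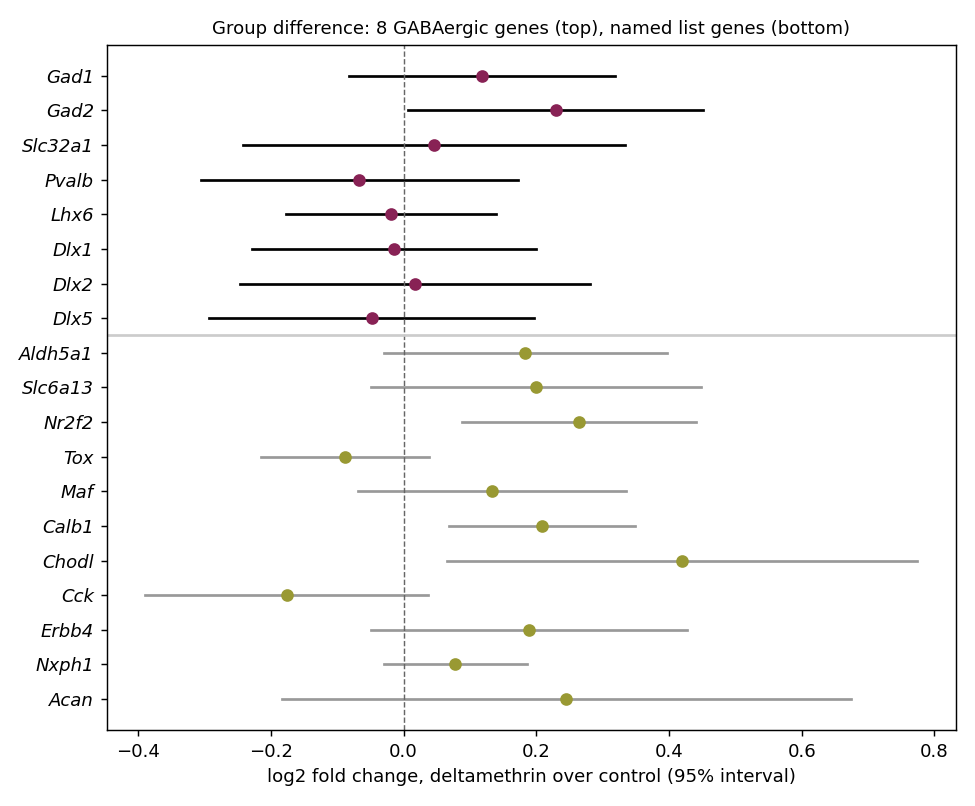
Log2 fold change of deltamethrin over control (x axis; points) with its 95% interval (lines) from edgeR for the 8 genes (top) and the genes named from the pathway lists (bottom). Of the 8 genes only the Gad2 interval, 0.01 to 0.45, lies to one side of 0, and none was called after adjustment over all genes.

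The 8 genes varied far more between libraries than between groups. The highest library exceeded the lowest 1.83-fold for Lhx6, 2.31-fold for Gad1, 2.69-fold for Gad2 and 3.68-fold for Slc32a1. The coefficient of variation over the 31 libraries was 14.3% for Lhx6 and 26.8% for Slc32a1, the lowest and highest of the 8. Counting error alone averaged 1.2% for Gad1 and 2.46% for Slc32a1, but 11.1% for Dlx2 and 11% for Dlx5. The biological coefficient of variation fitted by edgeR was 14.3% for Lhx6 and 27.1% for Slc32a1, against a median of 18.3% over all genes.

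Which genes varied together was read from 28 pairs of log2 CPM over the 31 libraries, of which 16 had a Pearson r with a permutation p-value under 0.05 after adjustment over the pairs, 13 positive and 3 negative. The libraries share depth and composition, so these values describe the libraries as much as the genes. Gad1, Gad2 and Slc32a1 were positive with each other, most closely in the pairs with Gad1. Gad1 and Slc32a1 had r = 0.861 and Spearman rho = 0.822, and Gad1 and Gad2 had r = 0.853 and rho = 0.798, each with a permutation p of 1e-05, which is the lowest p these permutations can reach (adjusted 9.33e-05 for r). The r of Gad1 with Slc32a1 was 0.861 within control, 0.884 within deltamethrin and 0.822 without the 2 libraries farthest from the median, where the r of Gad1 with Gad2 was 0.780. Such values were common: 215 other genes of 19528 (1.10%) followed Gad1 more closely than Slc32a1 did, and 281 more closely than Gad2 did. Gad2 and Slc32a1 had a lower r of 0.670 (rho = 0.681, permutation p = 7e-05, adjusted 0.000392). Within control their r was 0.675 (permutation p adjusted 0.0802). Of other genes, 10.5% followed Gad2 more closely than Slc32a1 did.

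Pvalb went the other way. Its r was -0.663 with Gad1 (rho = -0.649, permutation p = 5e-05, adjusted 0.00035), -0.588 with Gad2 (rho = -0.608, permutation p = 0.00046, adjusted 0.00184) and -0.531 with Slc32a1 (rho = -0.438, permutation p = 0.00187, adjusted 0.00524). Within control the r with Gad1 was -0.640 and within deltamethrin -0.723, without control replicate 2 it was -0.583, and without the 2 farthest libraries -0.696. These inverse relations depended on the scaling: with no scaling factors the r of Pvalb with Gad1 was -0.325 (permutation p adjusted 0.0904), and 0 of the 3 passed. For Slc32a1 the r with Pvalb was -0.365 without control replicate 2 (permutation p adjusted 0.0839), so passing the threshold rests on that library. Within deltamethrin, which does not hold that library, the r was -0.526 (permutation p adjusted 0.0593). For Gad2 the r with Pvalb was -0.559 without control replicate 2 and -0.633 without the 2 farthest. Of all other genes, 87.2% had a higher r with Gad1 than Pvalb had, 83.5% with Gad2 and 81.0% with Slc32a1. The remaining genes ran at least as far the opposite way.

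The homeobox genes also varied together, but not apart from the GABA genes. Dlx1 and Dlx2 had r = 0.722 (rho = 0.631, permutation p = 1e-05, adjusted 9.33e-05), 0.841 within control and 0.626 within deltamethrin, and 0.623 without the 2 farthest libraries. Only 16 of 19528 other genes followed Dlx1 more closely than Dlx2 did. Lhx6 followed Dlx2 (r = 0.576, rho = 0.579, permutation p = 0.00056, adjusted 0.00196), with r = 0.541 without the 2 farthest libraries. Dlx1 and Gad1 had r = 0.190 (rho = 0.135, permutation p = 0.306, adjusted 0.357). Under the scaling used, this factor and the enzyme were therefore not shown to vary together. With no scaling factors their r was 0.551 (permutation p adjusted 0.00448), so this result depended on the scaling. With scaling, other pairs across the 2 sets did pass. For Dlx2, r was 0.617 with Slc32a1 and 0.570 with Gad1 (permutation p adjusted 0.00098 and 0.00292), but 0.315 with Gad2 (adjusted 0.114). For Lhx6, r was 0.521 with Slc32a1 and 0.429 with Gad1 (permutation p adjusted 0.00692 and 0.0297), but 0.247 with Gad2 (adjusted 0.23). With no scaling factors the r of Gad2 was 0.553 with Dlx2 and 0.593 with Lhx6 (permutation p adjusted 0.00242 and 0.00106). Dlx5 and Slc32a1 had r = 0.424 but rho = 0.135, and r was 0.006 without control replicate 2 and deltamethrin replicate 4, so that relation rests on those libraries.

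**Figure D3:**
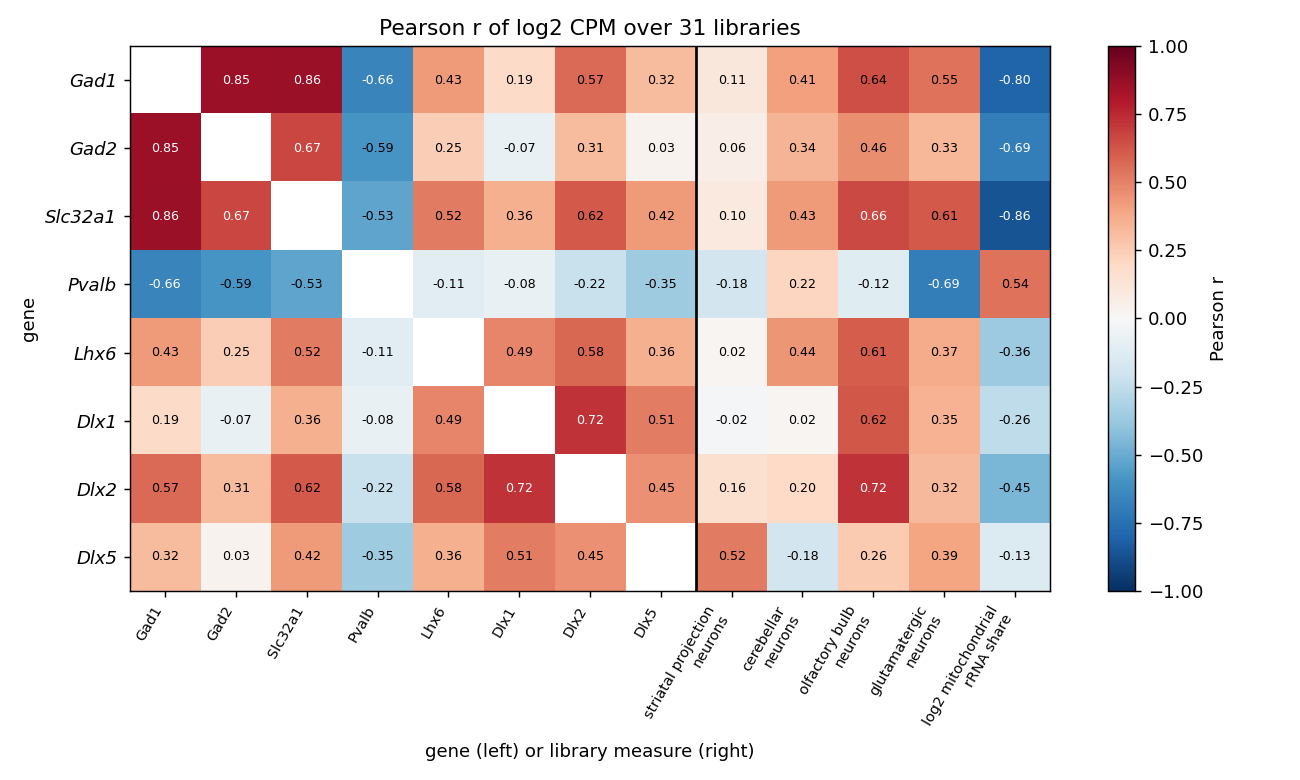
Pearson r of log2 CPM over the 31 libraries between the 8 genes (left of the line) and between each gene and 5 library measures (right: mean log2 CPM of 4 marker lists, and the log2 mitochondrial rRNA share). Gad1, Gad2 and Slc32a1 are positive with each other (0.67 to 0.86) and negative with Pvalb, and Dlx1 and Dlx2 stand at 0.72.

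The mitochondrial rRNA share and the mean level of 4 marker lists gave 40 further relations, of which 17 had a permutation p-value under 0.05 after adjustment, 12 positive and 5 negative. These relations were computed with scaling factors only. The lowest factors were 0.613 in control replicate 2 and 0.843 in deltamethrin replicate 8, where the share was 40.2% and 26.3%. A factor below 1 raises the CPM of each gene in its library. Libraries with more mitochondrial rRNA had lower levels of the GABA genes. Slc32a1 had r = -0.860 (rho = -0.828), Gad1 r = -0.802 (rho = -0.798), each with a permutation p of 1e-05, and Gad2 r = -0.691 (rho = -0.702, permutation p = 2e-05). The adjusted p of r was 0.000133 for the first 2 and 0.0002 for Gad2. Slc32a1 had r = -0.959 within control and -0.752 within deltamethrin, and -0.784 once the 2 libraries with the most extreme share were left out. For Dlx2 the r with the share was -0.453 (rho = -0.492, permutation p = 0.0105, adjusted 0.0279), and it missed the threshold without the 2 farthest libraries (-0.395, adjusted 0.0649). Over all genes the median r with the share was 0.0091, and 3.05% of genes had an r below that of Slc32a1, 6.35% below Gad1 and 12.6% below Gad2.

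Under the scaling used, Pvalb was higher where the share was higher (r = 0.541, rho = 0.410, permutation p = 0.00189, adjusted 0.0063). This relation was not recomputed without scaling factors. Its r was 0.401 within control, 0.725 within deltamethrin and 0.387 without control replicate 2 (permutation p adjusted 0.0683), so the relation rests in part on that library. Over all genes, 79.9% had a lower r with the share than Pvalb had. Pvalb was lower where the glutamatergic markers were higher (r = -0.694, rho = -0.602, permutation p = 4e-05, adjusted 0.00032). That r was -0.678 within control, -0.731 within deltamethrin and -0.491 without the 2 libraries farthest from the median. Gad1 and Slc32a1 rose with the glutamatergic markers (r = 0.546 and 0.613, permutation p adjusted 0.0056 and 0.00124). Without control replicate 2 these r were 0.428 and 0.462. For Gad2 the r was 0.332 (adjusted 0.115), and of the other genes only Pvalb passed. The r of Pvalb with the cerebellar markers was 0.216 (rho = 0.012, permutation p adjusted 0.342). Lhx6 and Slc32a1 rose with the cerebellar markers (r = 0.441 and 0.426, permutation p adjusted 0.0319 and 0.0412). Neither passed within control (adjusted 0.274 and 0.297) or within deltamethrin (adjusted 0.13 for each). Gad1 had an r of 0.409 (adjusted 0.0503), and over all libraries no other gene passed with that list. Without the 2 libraries farthest from the median, Gad1 and Gad2 also passed (r = 0.517 and 0.438, permutation p adjusted 0.0175 and 0.0415). After each gene was regressed on the log2 mitochondrial rRNA share, r was 0.692 for Gad1 with Gad2, 0.563 for Gad1 with Slc32a1, 0.208 for Gad2 with Slc32a1, -0.456 for Gad1 with Pvalb and 0.703 for Dlx1 with Dlx2. With that share as a covariate the Gad2 log2 fold change was 0.18 (unadjusted p = 0.0237, adjusted 0.513, edgeR).

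**Figure D4:**
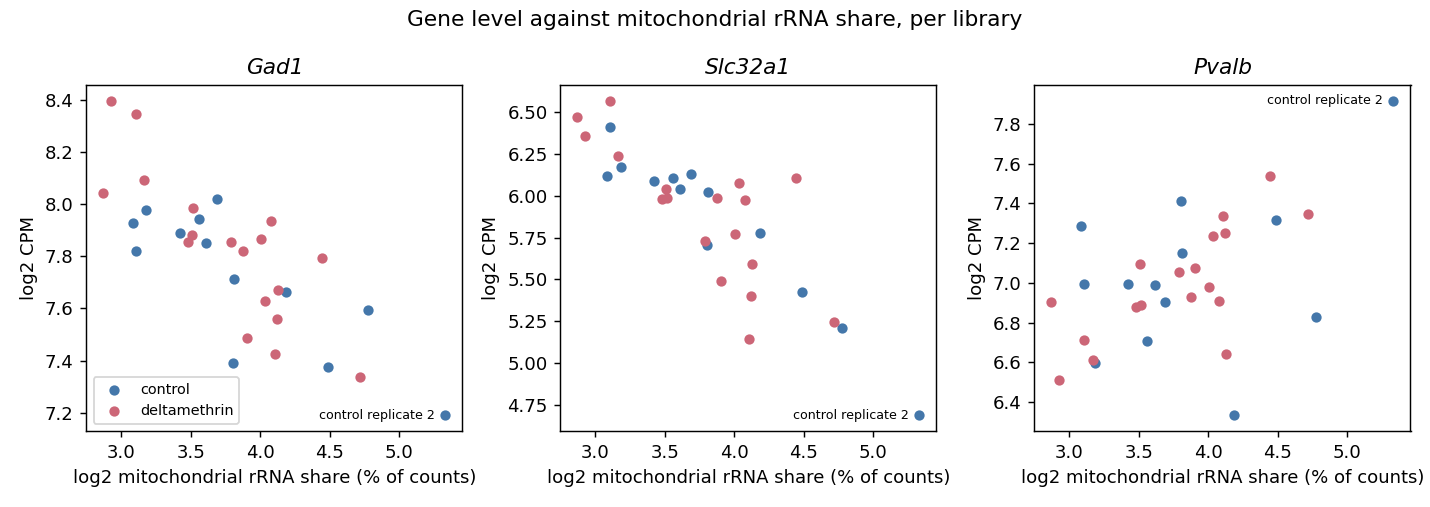
Log2 CPM (y axes) of Gad1, Slc32a1 and Pvalb in each library against the log2 of the percentage of counts in mitochondrial rRNA (x axes), control in blue and deltamethrin in red. Gad1 and Slc32a1 fall (r = -0.802 and -0.860) and Pvalb rises (r = 0.541) along the axis, with control replicate 2 at the right end of each panel.

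Homeobox genes and GABA genes varied with marker lists named for regions. The olfactory bulb list holds Sp8, which is also on the list of transcription factors of inhibitory neurons. Its score is therefore not a measure of region alone. Dlx2 rose with the mean level of 8 olfactory bulb markers (r = 0.725, rho = 0.773, permutation p = 1e-05, adjusted 0.000133), 0.811 within control, 0.659 within deltamethrin and 0.613 without the 2 libraries farthest from the median. Dlx1 did so over all libraries (r = 0.619, rho = 0.50, permutation p = 0.00028, adjusted 0.00124) and within control (0.816), but its r was 0.262 within deltamethrin and 0.412 without the 2 farthest libraries (permutation p adjusted 0.0555). The difference between the groups in this r was not tested. Lhx6 also rose with the olfactory bulb score (r = 0.605, rho = 0.604, permutation p = 0.00033, adjusted 0.00132), with 0.413 without the 2 farthest libraries (adjusted 0.0555). So did Gad1, Slc32a1 and Gad2 (r = 0.643, 0.659 and 0.463, permutation p adjusted 0.000629, 0.000629 and 0.0253). Dlx5 and Pvalb did not pass with this score (r = 0.262 and -0.123, permutation p adjusted 0.238 and 0.603). Dlx5 rose with the striatal markers (r = 0.519, rho = 0.626, permutation p = 0.00263, adjusted 0.00809), 0.433 within control, 0.664 within deltamethrin and 0.40 without the 2 farthest libraries (permutation p adjusted 0.062). Without control replicate 2 it was 0.649. The other 7 had an r of -0.180 to 0.157 with the striatal markers.

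**Figure D5:**
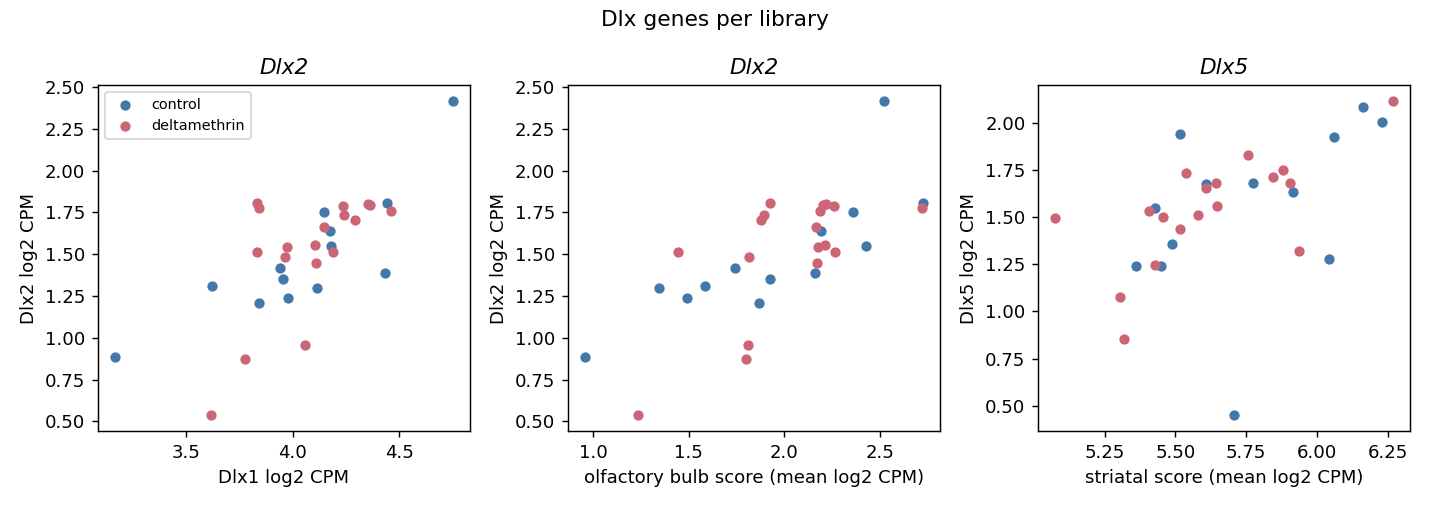
Log2 CPM in each library of Dlx2 against Dlx1 (left), of Dlx2 against the mean log2 CPM of 8 olfactory bulb markers (middle) and of Dlx5 against the mean log2 CPM of 12 striatal markers (right), control in blue and deltamethrin in red. Each relation is positive (r = 0.722, 0.725 and 0.519), and the low Dlx5 point is control replicate 2.

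The genes most like Gad1, Pvalb and Dlx1 were taken by the highest Pearson r of log2 CPM after the group means were subtracted, over 31 libraries and 19528 other genes. For Gad1 the closest were Ctnnb1 (beta-catenin) and Vcp (an AAA ATPase), with r of 0.932 and 0.931. For Pvalb they were Kcnk10 (a potassium leak channel), Rims2 (a protein of the presynaptic active zone) and Clec2l, with r of 0.901, 0.887 and 0.880. For Dlx1 they were Unc119b, Kcnj4 (an inward rectifier potassium channel) and Gng4 (a G protein gamma subunit), with r of 0.798, 0.790 and 0.773. For these genes the values without the 2 libraries farthest from the median of the gene ran from 0.665 to 0.914. None of them is a member of the set of 8 genes.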

How the data were processed

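Total RNA of mouse brain was sequenced in 31 libraries, 13 control and 18 deltamethrin by the agent label. The authors deposited a table of raw, unnormalized counts for Ensembl genes. The submitters' processing notes name Trimmomatic, HISAT2, SAMtools and MultiQC and the build GRCm38. The counting tool, annotation and use of strand are not given in the sources used here. Gene IDs were matched to GENCODE M21 (48435 of 48795).

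Counts were filtered with filterByExpr (minimum count 10, minimum total 15), scaled by TMM and compared with edgeR's quasi-likelihood test (version 4.0.16, R 4.3.3, robust=TRUE, no covariates), adjusted by Benjamini-Hochberg over 19529 genes. Standard errors are |log2 fold change| / sqrt(F). Log2 CPM used a prior count of 2. Permutation tests were two-sided with 100000 resamples. The members and lists were chosen with earlier results of these data known. Genes were named by rule: the 8 members, list genes at an unadjusted p under 0.05 or the 3 smallest per pathway list, and the 3 most similar genes of Gad1, Pvalb and Dlx1, of which 1 is not reported here. The rule also picked the 2 most abundant genes of each marker list, of which those beside a result are given. Alternatives were RLE and no scaling factors, no count filter, DESeq2 (1.42.0), limma voom (3.58.1), robust=FALSE, 2 covariates, permutation tests and leaving out each library. The scripts were tested on simulated data. Within each group, any 2 libraries differed beyond sampling noise (smallest chi-square per degree of freedom 5.66 over 153 deltamethrin pairs and 10.6 over 78 control pairs).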

Additional observations from a re-analysis of the deposited data

How the results depend on the processing

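The count of called genes was 0 among the 8 and 0 among all genes under each of the 8 alternative fits and in the 31 fits that left out 1 library, and 853 genes by edgeR and 986 by DESeq2 had an unadjusted p-value below 0.05. Of 72 member values under the alternatives other than leaving out a library, 67 kept their sign and 5 reversed: without scaling factors Pvalb was 0.0065, Lhx6 0.015 and Dlx1 0.011, where the median of all genes moved from 0.0014 to 0.043, and Dlx1 was 0.0015 with limma voom and 0.020 as a difference of mean log2 CPM. The cause was not tested for the last 2. Leaving out 1 library gave ranges of 0.077 to 0.15 for Gad1, 0.18 to 0.26 for Gad2, -0.023 to 0.10 for Slc32a1, -0.11 to 0.028 for Pvalb, -0.056 to 0.020 for Lhx6, -0.071 to 0.055 for Dlx1, -0.025 to 0.13 for Dlx2 and -0.10 to 0.00073 for Dlx5, with 17 of 248 values reversed. The count of members at an unadjusted p-value under 0.05, which was 1, was 0 without scaling factors and 0 with limma voom, and ran from 0 to 1 when 1 library was left out. It was 0 without control replicate 2, 6, 7, 10, 11 or 13 or deltamethrin replicate 1, 2, 3, 7 or 15, where the Gad2 p-value was 0.0516 to 0.0851. The count of list genes at that threshold was 4, against 7 with the mitochondrial rRNA covariate and 3 to 7 when 1 library was left out (7 without deltamethrin replicate 8). Of the 28 pairs, 16 passed, against 3 within control, 11 within deltamethrin and 9 without the 2 farthest libraries. Of the 40 relations, 17 passed, against 5 within control and 10 within deltamethrin, where there are fewer libraries. The pair counts without control replicate 2 (15), with no scaling factors (19) and after regression on the mitochondrial rRNA share (11), and the relation count without control replicate 2 (18), were chosen after seeing the data. Dlx2 and Dlx5, with as few as 26 and 14 counts in a library, are limited by depth. No paired analysis was possible because numbers given in sample order pair nothing.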
